A study of Mus musculus with 18 samples.

Results

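The stress keratins measured here were Krt6a, Krt6b, Krt16 and Krt17, taken by name from the 41605 genes listed for each library of a mouse skin RNA sequencing study of household laundry detergents. All 4 were listed, and all 4 were among the 16836 genes that passed the filter on low counts. Skin came from C57BL/6 mice of 8 to 12 weeks and had been treated with detergent A, detergent B or phosphate-buffered saline (PBS), with 6 libraries per group. The labels give no dose, length of treatment or body site. They also leave out whether each library is a separate animal. Each p-value therefore treats the libraries as independent samples and may not extend to other animals. Nothing in the labels names the products or their ingredients.

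Keratins are the intermediate filament proteins of epithelia, and a filament needs a type II keratin (Krt6a and Krt6b here) paired with a type I keratin (Krt16 and Krt17 here). In healthy skin these keratins are made mainly in the hair follicle, the nail and glabrous epidermis. After wounding, irritation or barrier loss keratinocytes between the follicles switch them on, and so they are used as markers of an activated epidermis. In people, mutations in the matching genes cause pachyonychia congenita, a disease of thick nails and painful plantar skin.

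The genes lie in the 2 keratin clusters of the mouse genome (GRCm38, GENCODE M21 annotation), all on the minus strand and all protein coding. Krt6a (ENSMUSG00000058354) is at chr15:101689910-101694307 and Krt6b (ENSMUSG00000023041) is its neighbour at chr15:101676023-101680287. Krt16 (ENSMUSG00000053797) is at chr11:100246091-100248902 and Krt17 (ENSMUSG00000035557) at chr11:100256217-100261029.

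The coding sequences bear on how well reads can be assigned to each gene, so the stretches that decide this are shown. Krt6a and Krt6b were identical at 97.6% of 1665 aligned coding positions, with 40 differing positions and an identical run of 280 bases. The 90 bases in which they differed most lie in exon 4 of 9, at chr15:101692484-101692573 in Krt6a and chr15:101678303-101678392 in Krt6b, and capitals mark the 12 differing bases.
Krt6a: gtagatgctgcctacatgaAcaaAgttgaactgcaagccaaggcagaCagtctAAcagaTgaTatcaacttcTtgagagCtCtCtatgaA
Krt6b: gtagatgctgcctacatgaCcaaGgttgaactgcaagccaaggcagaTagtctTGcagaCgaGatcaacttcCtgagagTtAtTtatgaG
Of the stretches of 100 bases in the transcript, 34.0% in Krt6a and 30.6% in Krt6b also occurred in the transcript of another gene, mostly in each other. The split of reads between Krt6a and Krt6b is therefore uncertain, and the sum of both is given beside them. The sum does not recover reads assigned to other genes that share sequence. One of these, the nearby gene Gm5478, took 0 to 6013 counts per library.

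Krt16 and Krt17 were less alike, with 70.4% identity over 1427 aligned coding positions. The 90 bases in which they were most alike lie in exon 1 of 8, at chr11:100248456-100248545 in Krt16 and chr11:100260618-100260707 in Krt17. Capitals mark the 4 bases that differ.
Krt16: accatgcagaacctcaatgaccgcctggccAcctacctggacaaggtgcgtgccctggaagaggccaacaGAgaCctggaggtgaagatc
Krt17: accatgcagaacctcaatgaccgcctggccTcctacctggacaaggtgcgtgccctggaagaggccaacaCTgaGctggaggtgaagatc
No stretch of 100 bases in the Krt17 transcript occurred in another gene. In Krt16, 24.3% of such stretches did, mostly in Gm11597, a nearby gene annotated as an unprocessed pseudogene, and otherwise in Krt14. No gene named Gm11597 was found among the genes listed with counts.

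Total counts ranged from 17312623 to 29599018 per library, and the members took 3926 to 87770 counts for Krt6a, 790 to 67072 for Krt6b, 4348 to 87220 for Krt16 and 17241 to 59417 for Krt17. At that depth counting error is small beside the differences between libraries. The epidermal and dermal genes that define skin were present in every library, with summed levels of 8 such genes from 22270 to 48100 CPM, the usual unit of counts scaled to a common library total. Levels summed over a list are plain CPM throughout, whereas levels of single genes and of Krt5 with Krt14 also carry the TMM factors for library composition, which lay between 0.909 and 1.09. Hair shaft keratins stood apart in PBS replicate 6, whose score was -2.59 on the log2 scale relative to the PBS mean, while the other 5 PBS libraries had scores of -0.33 to 1.79. The Krt17 values that moved most with that library are also given without it below.

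Krt6a, Krt6b and Krt16 had higher median levels in skin treated with either detergent than in PBS skin, and Krt17 had lower ones. None of these differences passed the main test, and the libraries of each group lay far apart for all but Krt17. Their levels are CPM with TMM factors, and they compare libraries within 1 gene.

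Krt16 encodes the type I partner of keratin 6 in activated epidermis. Its lowest, median and highest levels were 172, 2408 and 4840 CPM in detergent A skin, 527, 2020 and 3222 CPM in detergent B skin, and 309, 579 and 1439 CPM in PBS skin. A total of 4 of 6 detergent A libraries and 5 of 6 detergent B libraries lay above every PBS library, while detergent A replicate 6 lay below all of them. With detergent A, at least 3 of 6 libraries exceeded every PBS library for 20.1% of all genes tested, and with detergent B for 19.1%. That cut is laxer than the 4 and 5 libraries of Krt16, for which no share was computed.

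Krt6a encodes a type II keratin that is also made constitutively in the follicle. Its lowest, median and highest levels were 156, 2194 and 4871 CPM in detergent A skin, 387, 1235 and 2747 CPM in detergent B skin, and 378, 576 and 1585 CPM in PBS skin. The groups overlapped, with 4 detergent A libraries and 2 detergent B libraries above every PBS library. With detergent A, 20.1% of all genes tested had at least 3 such libraries. No share was computed for 2 libraries with detergent B. Detergent A replicate 6 was again the lowest library of all 18.

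Krt6b encodes the near-identical second keratin 6 and had the widest range. Its lowest, median and highest levels were 47.3, 1113 and 3722 CPM in detergent A skin, 91.6, 1166 and 1815 CPM in detergent B skin, and 36.1, 137 and 851 CPM in PBS skin. A total of 3 detergent A libraries and 4 detergent B libraries were above every PBS library. At least 3 such libraries were found for 20.1% of all genes tested with detergent A and 19.1% with detergent B. PBS replicates 1 and 4 reached 851 and 757 CPM, whereas the other PBS libraries stayed between 36.1 and 142 CPM.

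Krt17 encodes a type I keratin of the outer root sheath and of activated epidermis, and in mouse it also regulates keratinocyte growth. Its lowest, median and highest levels were 1178, 1271 and 1996 CPM in detergent A skin, 1080, 1222 and 1820 CPM in detergent B skin, and 963, 1709 and 1901 CPM in PBS skin. Only 1 detergent A library and 1 detergent B library lay above the PBS mean on the log2 scale, in both cases replicate 1. The lowest value of all 18 libraries was that of PBS replicate 6.

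**Figure D1:**
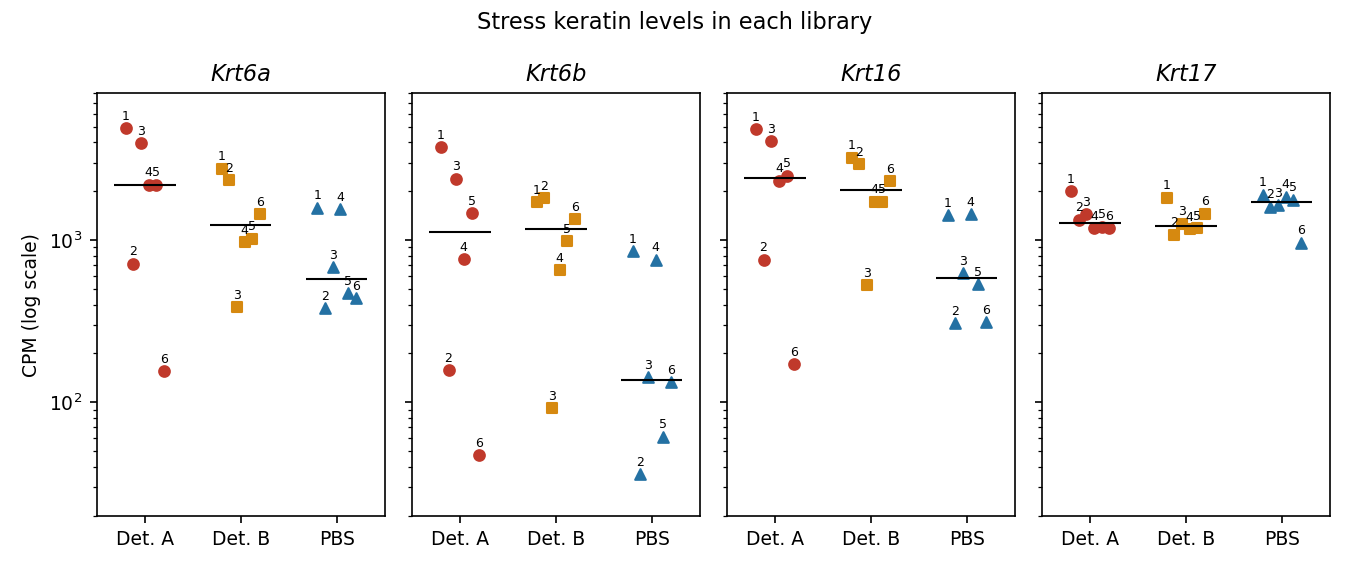
Levels of Krt6a, Krt6b, Krt16 and Krt17 in CPM on a log axis, 1 point per library with its replicate number, for detergent A, detergent B and PBS skin; bars mark group medians. Krt6a, Krt6b and Krt16 spread over more than a factor of 10 among detergent A libraries, whereas Krt17 lies between 963 and 1996 CPM in all libraries.

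Each detergent was set against PBS, the contrast named in the study design. For detergent A, edgeR's quasi-likelihood test gave a log2 fold change of 1.66 ± 0.61 (SE) for Krt16, a 3.16-fold difference with an adjusted p of 0.162. Krt6b differed by 2.11 ± 0.93 and Krt6a by 1.46 ± 0.62 on the log2 scale, with adjusted edgeR p-values of 0.231 and 0.220. Krt17 differed by -0.22 ± 0.17, with an adjusted edgeR p of 0.493. None of the 4 stress keratins passed the threshold of 0.05, against 0.19% of all genes tested in this comparison. Without adjustment 3 of the 4 had a p under 0.05, against 18.8% of all genes tested. Detergent A replicate 6 decided the call for Krt16: without it the log2 fold change was 1.90 with an adjusted edgeR p of 0.0433.

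For detergent B, Krt16 had a log2 fold change of 1.42 ± 0.61 (SE), a 2.68-fold difference with an adjusted edgeR p of 0.170. Krt6b differed by 1.74 ± 0.92 and Krt6a by 0.81 ± 0.62 on the log2 scale, with adjusted edgeR p-values of 0.257 and 0.441. Krt17 differed by -0.29 ± 0.17, with an adjusted edgeR p of 0.315. Again none of the 4 passed, against 3.05% of all genes tested. Only Krt16 had an unadjusted p under 0.05, which 23.3% of all genes tested had.

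With both detergents averaged against PBS, Krt16 came nearest to the threshold, with a log2 fold change of 1.54 ± 0.56 (SE) and an adjusted edgeR p of 0.0936. Krt6b differed by 1.92 ± 0.85, Krt6a by 1.13 ± 0.56 and Krt17 by -0.26 ± 0.15. None of the 4 passed, against 6.91% of all genes tested, and Krt16 and Krt6b had an unadjusted p under 0.05, against 25.9%. Without detergent A replicate 6, Krt16 passed in this comparison too, with an adjusted edgeR p of 0.0316. These comparisons share the PBS libraries, so their values are not independent of each other. A fold of at least 2 toward higher levels was fitted for 3 of the 4 stress keratins, against 0.855% of all genes tested.

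The call for Krt16 depended on the tool. DESeq2 gave Krt16 an adjusted p of 0.0416 with detergent A, 0.0754 with detergent B and 0.0149 with both. With limma and quality weights per library, Krt16 had adjusted p-values of 0.0508 with detergent A, 0.0352 with detergent B and 0.00977 with both. The same limma fit also called Krt17 lower, by -0.40 with detergent B and -0.36 with both, and Krt6b higher, by 2.55 with both. Those weights ranged from 0.346 for PBS replicate 6 to 2.45 for PBS replicate 2.

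When Krt6a and Krt6b counts were summed into 1 gene, the log2 fold change was 1.67 with detergent A and 1.13 with detergent B. The adjusted edgeR p-values of the sum were 0.211 and 0.327. The sum therefore also missed the threshold in both comparisons.

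Between the detergents no stress keratin differed beyond the spread between libraries. For detergent B against detergent A the log2 fold changes were -0.24 for Krt16, -0.66 for Krt6a, -0.37 for Krt6b and -0.06 for Krt17, each with an adjusted edgeR p of 0.989. The 95% confidence intervals were wide, from -1.49 to 1.01 for Krt16 and from -2.24 to 1.497 for Krt6b, and narrower for Krt17, from -0.42 to 0.30. Of all genes tested 0% passed in this comparison with edgeR, 0 genes passed with DESeq2 or limma, and 3.27% had an unadjusted edgeR p under 0.05.

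**Figure D2:**
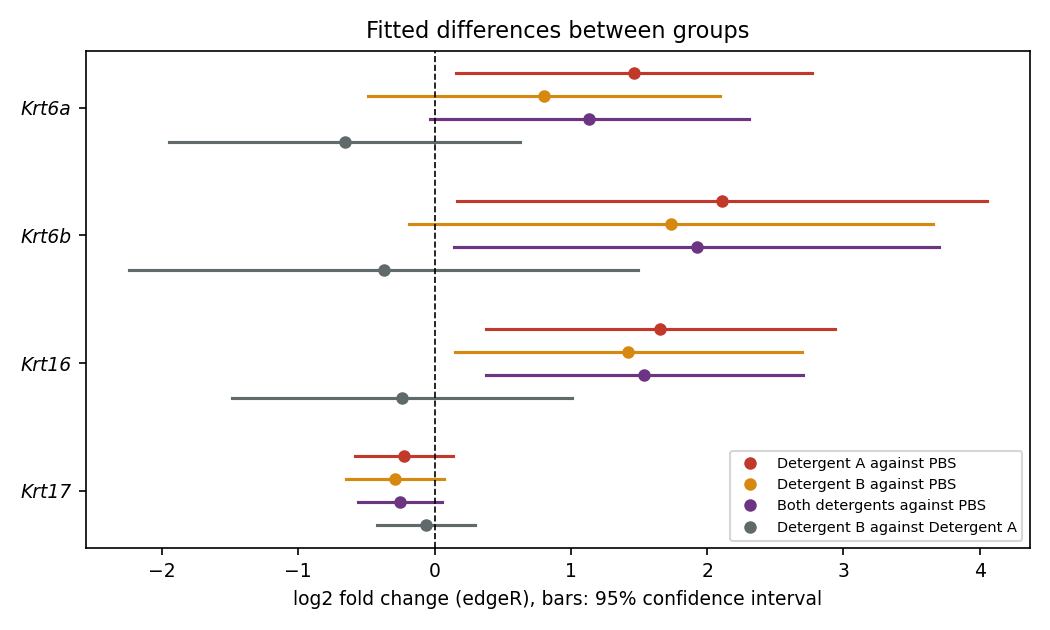
Log2 fold changes of each stress keratin fitted by edgeR, with 95% confidence intervals, for detergent A against PBS, detergent B against PBS, both detergents against PBS and detergent B against detergent A. Intervals of Krt16 against PBS lie above 0 before adjustment, those of Krt17 against PBS reach from -0.65 to 0.14, and all intervals between the detergents include 0.

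The spread within groups separated Krt17 from the other stress keratins. The SD of log2 CPM for Krt6b was 2.44 in detergent A skin, 1.62 in detergent B skin and 1.86 in PBS skin, and it exceeded the SD of 99.6% of genes or more in each group. For Krt16 the SD was 1.82 in detergent A skin, 0.95 in detergent B skin and 0.996 in PBS skin. For Krt6a it was 1.86 in detergent A skin, 1.02 in detergent B skin and 0.93 in PBS skin. Each of these exceeded the SD of at least 97.5% of genes. For Krt17 the SD was 0.29 in detergent A skin, 0.27 in detergent B skin and 0.36 in PBS skin. It exceeded the SD of 53.1% of genes in detergent A skin, 54.5% in detergent B skin and 75.7% in PBS skin. Without PBS replicate 6 the SD of Krt17 in PBS skin was 0.11, above that of 36.6% of genes.

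Krt6a, Krt6b and Krt16 ranked the libraries in nearly the same order. Across the 18 libraries log2 CPM of Krt16 and Krt6a correlated with r = 0.97 (Pearson) and rho = 0.96 (Spearman). The pair Krt6b and Krt16 had an r of 0.96 and a rho of 0.96, and the pair Krt6a and Krt6b an r of 0.94 and a rho of 0.96. For each of these the permutation p was 1e-05, the smallest that 100000 resamples can give, and 3.33e-05 after adjustment over the 10 relations computed. Within single groups r was at least 0.896 for each of these pairs, and without the 2 libraries farthest from the median it was 0.94 to 0.96. The values of a pair share a library and its depth, and Krt6a and Krt6b also share sequence.

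Across all 18 libraries Krt17 did not rank them that way. Its r was 0.29 with Krt6a, 0.14 with Krt6b and 0.22 with Krt16, with adjusted permutation p-values of 0.295, 0.587 and 0.428. Centred on group means, r was 0.48 with Krt6a, 0.39 with Krt6b and 0.50 with Krt16. Without PBS replicate 6, r over the remaining libraries was 0.22 with Krt6a, 0.054 with Krt6b and 0.078 with Krt16. Over the 5 remaining PBS libraries alone, however, r was 0.81 with Krt6a, 0.81 with Krt6b and 0.88 with Krt16, a description of few points. Detergent A replicate 1 was the highest of all 18 libraries for all 4 genes.

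**Figure D3:**
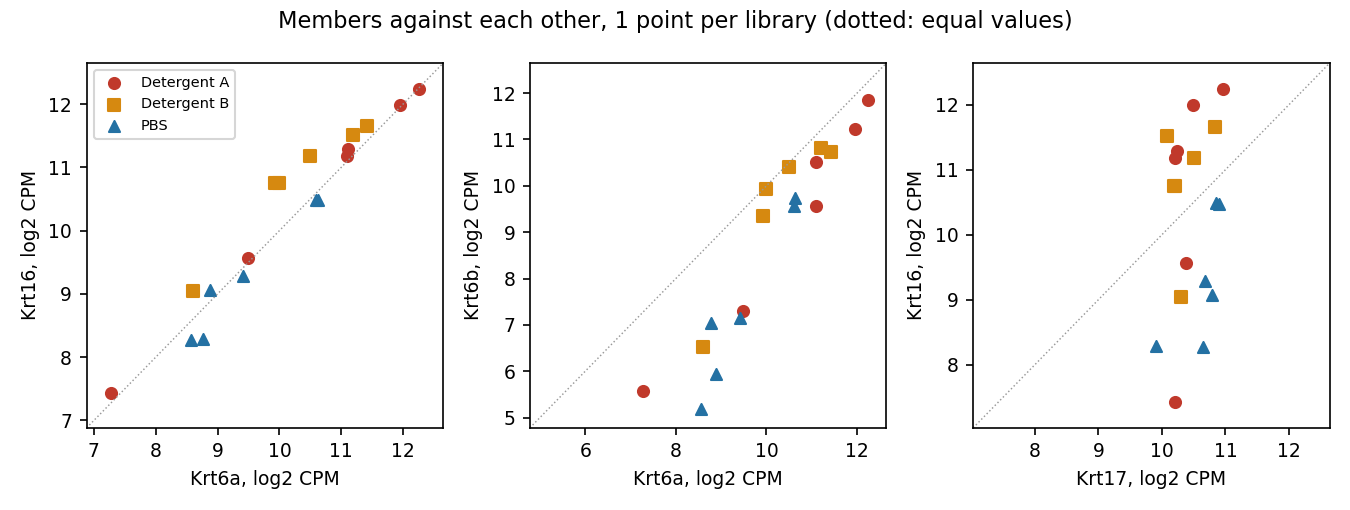
Log2 CPM of Krt16 against Krt6a, Krt6b against Krt6a and Krt16 against Krt17, 1 point per library, coloured by group, with a dotted line of equal values. The points of the first 2 panels follow a line (r = 0.97 and 0.94), while those of Krt16 against Krt17 do not (r = 0.22), and the PBS points lie below the dotted line there.

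Levels of different genes were compared per length, as counts per kilobase of exon scaled to the same total in every library (TPM). Length does not account for sequence shared with other genes. Of stretches of 100 bases, 0% were shared in Krt17, 24.3% in Krt16, 30.6% in Krt6b and 34.0% in Krt6a. How shared reads were counted is not given, so the order of the genes and the TPM shares and ratios below are uncertain. In PBS skin Krt17 was the highest stress keratin at 3246 ± 752 TPM (SD, n = 6), followed by Krt16 at 1524 ± 1019, Krt6a at 1082 ± 710 and Krt6b at 451 ± 506 TPM. All 6 PBS libraries held this order, although the means of Krt16 and Krt6a, and those of Krt6a and Krt6b, differed by less than the larger of their SDs. In detergent A skin Krt16 averaged 4204 ± 3149 TPM, Krt6a 2616 ± 2052, Krt17 2501 ± 644 and Krt6b 1722 ± 1791 TPM. In detergent B skin the means were 3473 ± 1659 TPM for Krt16, 2287 ± 549 for Krt17, 1621 ± 1001 for Krt6a and 1289 ± 789 for Krt6b. Within each detergent group the means of neighbours in this order differed by less than the larger of their SDs.

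Krt16 exceeded Krt17 per length in 4 of 6 detergent A libraries and 5 of 6 detergent B libraries, and in none of the 6 PBS libraries. As a share of the summed TPM of Krt16 and Krt17, Krt16 had a median of 66.6% in detergent A skin (range 12.7% to 73.7%), 60.2% in detergent B skin (29.2% to 72.9%) and 25.8% in PBS skin (16.0% to 43.6%). Detergent A replicates 2 and 6 and detergent B replicate 3 lay within the PBS range or below it. Among 47 keratin genes, the median TPM of Krt16 ranked 5 in detergent A skin and 5 in detergent B skin, against 11 in PBS skin. Krt17 ranked 7 in detergent A skin and 6 in detergent B skin, against 4 in PBS skin.

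The log2 ratio of Krt16 to Krt17 was tested by exact two-sided permutation of 6 against 6 libraries, as 1 of 6 ratios chosen after the values were seen. It was 1.78 higher in detergent B skin than in PBS skin, above the PBS mean in 6 of 6 libraries, with an exact p of 0.00649 and 0.0390 after adjustment over the 6 ratios. In detergent A skin it was 1.52 higher, above the PBS mean in 5 of 6 libraries, with an exact p of 0.0714 and 0.107 after adjustment. The other ratios, of Krt6a and Krt6b to Krt17, were 1.07 to 2.47 higher on the log2 scale and had adjusted exact p-values of 0.0844 to 0.126. The call for Krt16 with detergent B was lost when any of the 12 libraries but detergent B replicate 3 was left out, with adjusted exact p-values of 0.0519 to 0.0779. Without detergent A replicate 6, all 3 ratios of detergent A skin passed, with adjusted exact p-values of 0.0260 to 0.0338.

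Krt6b also took a varying share of keratin 6. Of the summed TPM of Krt6a and Krt6b, it held a median of 33.5% in detergent A skin (range 19.3% to 45.3%), 43.9% in detergent B skin (20.4% to 51.0%) and 21.6% in PBS skin (9.36% to 36.7%). The groups overlapped. The summed type II members stood at a median of 0.607 TPM per TPM of the type I members in detergent A skin, 0.480 in detergent B skin and 0.265 in PBS skin.

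**Figure D4:**
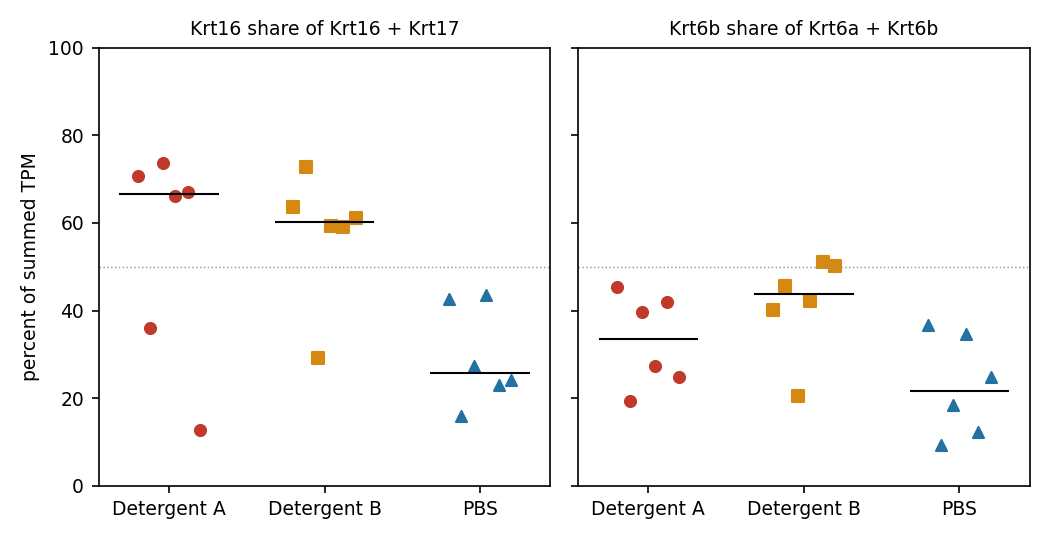
Share of Krt16 in the summed TPM of Krt16 and Krt17 (left) and of Krt6b in that of Krt6a and Krt6b (right), in percent, 1 point per library with bars at group medians and a dotted line at equal parts. In the left panel all PBS points lie below the dotted line, at 16.0% to 43.6%, while 4 detergent A and 5 detergent B points lie above it.

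The basal keratins Krt5 and Krt14, which form the filaments of the basal epidermis and the outer root sheath, served as a second scale. Whether this pair tracks the amount of keratinocyte RNA was not tested. In bulk skin, fewer cells of a type and less RNA per cell cannot be told apart. Krt5 and Krt14 together had a median of 16670 CPM in detergent A skin, 13370 in detergent B skin and 9419 in PBS skin. A ratio to the pair is lowered where the pair itself is higher. Per 100 counts of this pair, Krt16 had a median of 14.5 counts in detergent A skin, 14.2 in detergent B skin and 6.72 in PBS skin. Krt17 had 8.91 counts in detergent A skin, 9.27 in detergent B skin and 18.8 in PBS skin. For Krt6a the medians were 13.2 in detergent A skin, 8.59 in detergent B skin and 6.645 in PBS skin. For Krt6b they were 6.57 in detergent A skin, 8.11 in detergent B skin and 1.32 in PBS skin. The ranges of the groups overlapped for each gene.

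With libraries scaled to Krt5 and Krt14, the log2 fold changes against PBS were 0.87 with detergent A and 0.95 with detergent B for Krt16, and -0.72 with either detergent for Krt17. Krt6a then differed by 0.68 with detergent A and 0.34 with detergent B. None of the 4 passed the edgeR threshold on that scale.

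Krt17 moved with the hair shaft keratins, whose score was the mean log2 CPM of Krt31 to Krt36 and related genes. The most abundant of them, Krt35, had medians of 44.6 CPM in detergent A skin, 11.5 CPM in detergent B skin and 200 CPM in PBS skin. The summed level of the 12 hair shaft keratins was 9.02 to 317 CPM in detergent A skin, 6.53 to 206 CPM in detergent B skin and 22.7 to 523 CPM in PBS skin. All but Krt84 had fitted log2 fold changes below 0 with both detergents, and Krt34, Krt81 and Krt82 passed the edgeR threshold as lower when both detergents were averaged, 3 of 12 against 3.11% of all genes tested. The 9 keratins of the companion layer and inner root sheath all had log2 fold changes below 0 as well, with none past the threshold. Krt71, of the inner root sheath, had medians of 265 CPM in detergent A skin, 52.9 CPM in detergent B skin and 1994 CPM in PBS skin. The summed level of these 9 was 69.6 to 5315 CPM in detergent A skin, 63.1 to 4147 CPM in detergent B skin and 211 to 7242 CPM in PBS skin.

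Across the 18 libraries Krt17 correlated with the hair shaft score at r = 0.66 (Pearson) and rho = 0.62 (Spearman) (permutation p of 0.00825 and 0.0168 after adjustment over the 10 relations). Within groups r was 0.37 in detergent A skin, 0.62 in detergent B skin and 0.87 in PBS skin. The value in PBS skin rested on PBS replicate 6, and over the other 5 PBS libraries r was 0.24. Over all libraries, with the 2 libraries of the most extreme score left out r was 0.63, and it was 0.68 without PBS replicate 6. Krt16 had an r of -0.47 and a rho of -0.53 with the score (adjusted permutation p 0.0900 and 0.0497), and an r of -0.25 after centring on group means. Within groups its r was -0.47 in detergent A skin, -0.42 in detergent B skin and 0.49 in PBS skin, where it was 0.12 without PBS replicate 6. Krt6b had an r of -0.51 and Krt6a of -0.37, neither past the threshold after adjustment.

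With the hair shaft score as a covariate, the log2 fold change of Krt17 was 0.05 with detergent A, -0.0030 with detergent B and 0.02 with both detergents. The score itself differed between the groups, at -4.90 to 0.46 in detergent A skin, -4.47 to -0.37 in detergent B skin and -2.59 to 1.79 in PBS skin. Score and treatment can therefore not be told apart here, and why Krt17 changed was not tested. Krt16 kept its direction in that fit, at 1.53 with detergent A and 1.30 with detergent B, and did not pass the threshold. Of all genes, 0 were called for either detergent in that fit, against 32 and 514 without the covariate. Without PBS replicate 6, Krt17 differed by -0.40 with detergent B and by -0.37 with both, with an adjusted edgeR p of 0.0836 and 0.0603.

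**Figure D5:**
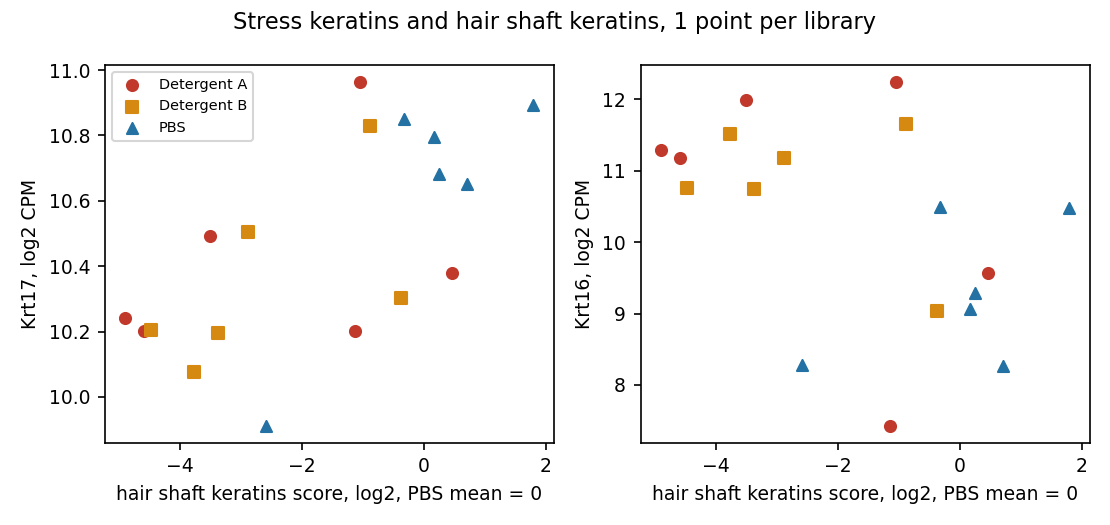
Log2 CPM of Krt17 (left) and Krt16 (right) against the hair shaft keratins score, the mean log2 CPM of these keratins relative to the PBS mean, 1 point per library coloured by group. Krt17 rises with the score (r = 0.66), with PBS replicate 6 at the lower edge at a score of -2.59. Krt16 shows an r of -0.47 that did not pass after adjustment, and a rho of -0.53 with an adjusted permutation p of 0.0497.

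The genes whose pattern over the 18 libraries was most like that of each stress keratin were looked for among 11884 genes with a mean of at least 5 CPM. For Krt16 they were Urah (r = 0.97), the cornified envelope precursor Sprr1b (r = 0.96) and the prostaglandin E synthase gene Ptges (r = 0.95). For Krt6b they were the glutathione transferase gene Gsta4 (r = 0.97), Serpinb6c (r = 0.95) and the kallikrein protease gene Klk6 (r = 0.95). For Krt6a they were the membrane protein gene Stom (r = 0.95), Urah (r = 0.95) and the dual oxidase gene Duox1 (r = 0.94). After centring on group means these r values were 0.94 to 0.97.

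For Krt17 the most alike genes were others, namely Ruvbl2 (r = 0.88), Rbm14 (r = 0.88) and Unc119b (r = 0.87). By mean r over the 4 stress keratins the leading genes were Serinc2, Stom, Ptges, Afg3l1 and Tnc, with mean r between 0.74 and 0.76. These genes were picked for their likeness, so the r values are a description.

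Among cytokines reported to induce stress keratins in keratinocytes, 4 of 8 genes tested rose with detergent B, against 1.97% of all genes tested, and 1 of 8 with detergent A, against 0.0535%. All of those that rose belong to the interleukin-1 family. Il1f8, which encodes interleukin-36 beta, averaged 97.7 ± 37.2 CPM in detergent A skin, 116 ± 16.6 CPM in detergent B skin and 46.0 ± 12.2 CPM in PBS skin (SD, n = 6 each). Its log2 fold change was 1.08 ± 0.22 (SE) with detergent A and 1.33 ± 0.22 with detergent B, with adjusted edgeR p-values of 0.0465 and 0.00978. Il1f6 (interleukin-36 alpha), Il1f9 (interleukin-36 gamma) and Il1a (interleukin-1 alpha) rose with detergent B by 1.61, 0.92 and 0.68 on the log2 scale. Il1b, Il6, Tnf and Osm did not pass in either comparison. The list held 11 genes in the files, of which Il17a, Il22 and Ifng did not pass the filter on low counts and were not tested. Over the 8 genes the median log2 fold change was 0.78 with detergent A and 0.64 with detergent B, against -0.01 over all genes tested in both.

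Of the receptor and ligands of the epidermal growth factor pathway, which induces keratins 6 and 16 in cultured keratinocytes, 0 of 7 passed with either detergent. That is near the share of all genes tested, 0.19% with detergent A and 3.05% with detergent B. Unadjusted, 0 of these 7 had an edgeR p under 0.05 in either comparison. The shares of all genes tested with such a p were 18.8% with detergent A and 23.3% with detergent B. The receptor gene Egfr differed by 0.10 with detergent A and -0.13 with detergent B, and the ligand genes Tgfa and Ereg by 0.35 and 0.07 with detergent A, and by 0.08 and 0.49 with detergent B. The median over the 7 genes was 0.10 with detergent A and -0.13 with detergent B.

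Of 22 transcription factors that act on stress keratin genes, 0 passed with either detergent, and 4 with detergent A and 6 with detergent B had an unadjusted edgeR p under 0.05. That is near the 18.8% and 23.3% of all genes tested with detergents A and B. With both averaged, 9 of the 22 had an unadjusted edgeR p under 0.05, against 25.9% of all genes tested. Nfe2l2, whose product NRF2 is reported to induce Krt16 and Krt17 in mouse epidermis, differed by 0.20 ± 0.08 (SE) with detergent A and 0.16 ± 0.08 with detergent B. Stat3 differed by 0.25 with detergent A and 0.24 with detergent B, Klf4 by 0.14 with detergent A and 0.33 with detergent B, and Trp63 by 0.13 with detergent A and -0.07 with detergent B. When both detergents were averaged, 1 of the 22 passed as lower, against 3.11% of all genes tested. It was Jun, a component of the AP-1 factor, which fell by 0.46 on the log2 scale with an adjusted edgeR p of 0.0319.

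Of 11 partners and regulators of keratin filaments, 0 passed with either detergent, and 4 had an unadjusted edgeR p under 0.05 in each comparison, against 18.8% of all genes tested with detergent A and 23.3% with detergent B. Dsp and Pkp1, which encode desmosomal plaque proteins that anchor the filaments, differed by 0.28 and 0.34 with detergent A, and by 0.21 and 0.33 with detergent B. Sfn, whose 14-3-3 protein binds keratin 17, differed by 0.61 with detergent A and 0.39 with detergent B. With both detergents averaged, 1 of the 11 passed as lower, against 3.11% of all genes tested. It was Tchp, which encodes a keratin-binding protein and fell by 0.36, with an adjusted edgeR p of 0.0323.

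Among 15 other markers of activated epidermis tested, 2 rose with detergent B, against 1.97% of all genes tested. These were Serpinb3a by 2.78 ± 0.55 and Sprr2d by 2.60 ± 0.53 on the log2 scale (SE), with adjusted edgeR p-values of 0.0178 and 0.0195. With detergent A 0 of 15 passed, and 8 had an unadjusted edgeR p under 0.05, against 18.8% of all genes tested. Sprr1b averaged 781 ± 502 CPM in detergent A skin, 731 ± 320 CPM in detergent B skin and 242 ± 124 CPM in PBS skin (SD, n = 6 each). It rose with both detergents averaged by 1.64 with an adjusted edgeR p of 0.0392. In that comparison 3 of the 15 rose, against 640 of all 16836 genes tested. Sprr1a and Cd44 differed by 0.60 and 0.46 with detergent A, and by 0.27 and 0.09 with detergent B, none past the threshold. Serpinb3a and Sprr2d belong to families of near-identical genes, so their single values are uncertain.

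Among 15 other epidermal keratins tested, 1 rose with detergent B, against 1.97% of all genes tested, and 0 with detergent A, against 0.0535%. Krt1, a keratin of the suprabasal layers, averaged 9070 ± 4075 CPM in detergent A skin, 12570 ± 3337 CPM in detergent B skin and 4523 ± 1376 CPM in PBS skin (SD, n = 6 each). Its log2 fold change was 1.004 with detergent A and 1.47 with detergent B, with adjusted edgeR p-values of 0.0848 and 0.0159. Its partner Krt10 differed by 0.49 with detergent A and 0.91 with detergent B, and basal Krt14 by 0.80 with detergent A and 0.56 with detergent B, none past the threshold. The 5 simple epithelial keratins listed had summed levels of at most 9.07 CPM in any library, and none of the 4 tested passed.

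Of 8 proliferation genes, 0 passed with either detergent, against 0.19% of all genes tested with detergent A and 3.05% with detergent B. An unadjusted edgeR p under 0.05 was found for 0 of the 8, against 18.8% and 23.3% of all genes tested. All 8 had log2 fold changes below 0 with either detergent. Mki67 differed by -0.21 with detergent A and -0.34 with detergent B. Summed levels of the 10 leukocyte markers listed were 121 to 314 CPM in detergent A skin, 207 to 407 CPM in detergent B skin and 192 to 284 CPM in PBS skin, and 0 of the 8 tested passed. Of 6 sebocyte genes 0 passed with either detergent, but all 6 had log2 fold changes above 0 with each. Unadjusted, 4 with detergent A and 5 with detergent B had an edgeR p under 0.05. Among all genes tested that share was 18.8% with detergent A and 23.3% with detergent B. With both averaged 2 of the 6 rose, Elovl3 and Scd1, against 640 of all 16836 genes tested. The 6 sebocyte genes summed to 3070 to 5194 CPM in detergent A skin, 4012 to 5632 CPM in detergent B skin and 3033 to 4283 CPM in PBS skin. Of 10 genes of the hair matrix and outer root sheath, 1 was lower with detergent B, against 182 of all 16836 genes tested. It was Sox9, at a log2 fold change of -0.44 with an adjusted edgeR p of 0.0466. All 10 had log2 fold changes below 0 with either detergent. Of 5 genes each of adipocytes, melanocytes and skeletal muscle, 0 passed. Melanocyte genes summed to 52.9 to 574 CPM in detergent A skin, 83.2 to 411 CPM in detergent B skin and 65.8 to 569 CPM in PBS skin. The part of these cell types in the stress keratin levels was not tested.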

How the data were processed

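Skin sections were kept in RNAlater and lysed in Qiazol, and total RNA was sequenced as Illumina libraries, per the labels' protocols. The deposited files hold raw counts of reads per gene, which were not normalised. STAR, featureCounts and the GRCm38.p5 build are named in the submitters' processing notes. Not given in the sources used here are the versions, the strand setting and the handling of reads with several matches. Symbols and coordinates came from GENCODE M21, which matched 41519 of 41605 gene IDs, and 86 were not matched.

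In R 4.3.3, edgeR 4.0.16 was used on the counts, with a quasi-likelihood fit with robust dispersion to all 18 libraries, TMM scaling and the default filter, which kept 16836 genes. Adjustment over those genes followed Benjamini and Hochberg, and 0.05 was the threshold. Log2 CPM used a prior count of 2. TPM used merged exon lengths. DESeq2 1.42.0, limma 3.58.1, other scalings and filters, a covariate, a replicate block and each library left out in turn were tried. The script was tested on simulated data.

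Genes named were the 4 stress keratins and, from each list, those past the threshold (at most 6 per comparison) and the 3 with the highest mean CPM. For lists of other cell types summed levels and genes past the threshold are given. Likeness took the 3 genes with the highest r for each stress keratin, and the 5 by mean r. The stress keratins, the lists and this rule were chosen with earlier results of these data known. Ratios to Krt17 and values without PBS replicate 6 within a group were chosen after seeing the data. Promoters and proteins of the stress keratins were not analysed here. No library duplicated another: the lowest chi-square per gene between 2 libraries was 9.48.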

Additional observations from a re-analysis of the deposited data

Results flagged for a closer look

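In 3 of the 12 gene and group combinations looked at, 1 library lay far from the other 5 on the log2 CPM scale, measured as its gap to the nearest library divided by the range of the group, with a critical value of 0.625. Chance flags about 1 in 20 groups. Krt6b in detergent B replicate 3 was 91.6 CPM, against 654 to 1815 CPM in the other detergent B libraries, with a gap of 0.658 of the range. Krt16 in the same library was 527 CPM, against 1720 to 3222 CPM in the others, with a gap of 0.654. Its hair shaft score, -0.37, was the highest of the detergent B libraries. Krt17 in PBS replicate 6 was 963 CPM, against 1607 to 1901 CPM in the other PBS libraries, with a gap of 0.753.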

How the results depend on the processing

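Directions against PBS held for Krt6a, Krt6b and Krt16 in all settings tried. The number of genes called moved most. It was 788 with detergent A, 1385 with detergent B and 1995 with both by DESeq2, and 3914, 5074 and 6337 by limma with quality weights. Without the filter it was 251 with detergent B and 726 with both. With the hair shaft score as a covariate it was 0, 0 and 9. With each library left out it ranged from 0 to 888 with detergent A, 28 to 1888 with detergent B and 93 to 2595 with both, the highest value each time without PBS replicate 6. Krt16 passed in DESeq2 at 1.67 with detergent A and 1.54 with both. In limma it passed at 1.58 with detergent B and 1.61 with both, Krt17 at -0.40 and -0.36, and Krt6b with both at 2.55. Krt17 turned to 0.051 with detergent A and 0.024 with both under the covariate. For detergent B against detergent A, scaling to Krt5 and Krt14 turned Krt16 to 0.080 and Krt17 to 0.0018, and limma turned Krt6b to 0.031.

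Leaving out 1 library moved Krt16 between 1.34 and 1.93 with detergent A and between 1.38 and 1.81 with both, and it passed without detergent A replicate 6 only. For detergent B against detergent A the ranges were -0.63 to 0.19 for Krt6b, -0.48 to 0.078 for Krt16 and -0.19 to 0.068 for Krt17, each above 0 only without detergent A replicate 1. The log2 ratios to Krt17 ranged, with detergent A, from 1.26 to 2.12 for Krt16, 0.9999 to 1.87 for Krt6a and 1.67 to 2.83 for Krt6b, and with detergent B from 1.57 to 2.13, 0.83 to 1.40 and 2.01 to 3.08 in the same order. Cases in which a call was gained came without detergent A replicate 6 or detergent B replicate 3.

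After centring on group means, the correlation of same-numbered libraries exceeded 0.1 in 2 or 3 of 6 pairs. Its medians were 0.025 to 0.172, and single values reached 0.546. Differently numbered libraries were not set beside them, so whether the numbers pair the samples was not tested. With a replicate block, 0 genes were called with detergent A, and for detergent B against detergent A Krt6b was 0.32 and Krt16 0.20. The causes of these changes were not tested.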
